A study of Mus musculus with 8 samples.

Results

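Proteasome genes were followed in mouse bone marrow-derived macrophages given interleukin-4 (IL-4) or left untreated. Members were chosen by symbol alone, as every gene name that begins with Psma to Psmg followed by a number, which gave 49 of the 23354 symbols in the deposited tables. Of these, 48 passed the filter on low values (1 FPKM or more in 2 or more libraries, FPKM being fragment counts scaled to transcript length and library size) and were among the 10934 genes tested. Psmb11 did not pass. Psmc3ip matches the pattern through its name only: it encodes a protein that interacts with the Psmc3 product and is not a subunit.

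The proteasome is the protease complex that degrades ubiquitin-tagged proteins in the cytosol and nucleus. Its barrel-shaped core has outer rings of alpha subunits and inner rings of beta subunits, of which Psmb5, Psmb6 and Psmb7 encode the catalytic ones, and a regulatory particle of ATPase and non-ATPase subunits unfolds and feeds in the substrate. In immune cells the catalytic subunits can be replaced by Psmb8, Psmb9 and Psmb10, and the PA28 cap made of Psme1 and Psme2 can bind the core; this immunoproteasome is known as an interferon-induced form that cuts peptides for MHC class I.

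The cells came from 8-week-old mice on a C57BL/6J background and were grown for 7 days in L929-conditioned medium to become macrophages. All carried floxed alleles of Ern1, which encodes the endoplasmic reticulum stress sensor IRE1α, either alone (Ern1f/f) or with a Cre recombinase driven by the myeloid gene Lyz2 (Ern1f/fLyz2-Cre). Each genotype was left untreated (control) or received 20 ng/ml IL-4 for 24 hours, which induces alternative activation, and each of the 4 groups has 2 libraries. Below, set 1 is the 4 libraries with replicate number 1 and set 2 the 4 with number 2, and pairs of values are given as set 1, then set 2. The labels do not say what the number marks, nor that the libraries came from separate animals or cultures, so p-values measure only the spread between these libraries.

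The groups follow the sample titles. The genotype field of the labels instead gives Ern1f/f for the whole of set 1 and Ern1f/fLyz2-Cre for the whole of set 2, against the title in 4 libraries, so differences between the sets are also differences between genotypes as that field has them. Ern1 read 11.5 and 9.55 FPKM in libraries titled Ern1f/f control, 10.2 and 9.11 with IL-4, 14.3 and 12.7 in those titled Ern1f/fLyz2-Cre control, and 7.43 and 10.98 with IL-4; a gene-level value does not show the loss of single exons, so it checks neither label. Lyz2, the gene whose locus carries the Cre, was lower in the library titled Ern1f/fLyz2-Cre in each of the 4 pairs with the same treatment and set (control 18113 against 10949 and 17415 against 2171 FPKM, IL-4 8901 against 5780 and 11961 against 1572 FPKM). By title the pooled ranges overlapped (Ern1f/f 8901 to 18113, Ern1f/fLyz2-Cre 1572 to 10949 FPKM). They also did by the genotype field (5780 to 18113 FPKM in set 1, 1572 to 17415 FPKM in set 2). Within title groups, set 2 was lower for Ern1f/f control and both Ern1f/fLyz2-Cre groups, but higher for Ern1f/f with IL-4. The order of Lyz2 thus followed the titles in every pair, and the field in some pairs but not all. The macrophage genes Csf1r (356 to 870 FPKM) and Cd68 (669 to 1001 FPKM) were high in all 8 libraries. Cd163 of the macrophage list stayed under the filter (at or below 0.215 FPKM), while 8 of its 9 genes in the tables passed. The T cell gene Cd3e stayed at or below 0.149 FPKM, and Flt3 and Zbtb46 of dendritic cells at or below 0.829 FPKM. Of the neutrophil, B cell, T or NK cell and dendritic cell lists, 5 of 7, 4 of 6, 7 of 8 and 6 of 7 genes in the tables stayed under the filter. Those that passed included S100a8 (up to 33.1 FPKM), Cd79b (up to 16.6), Cd22 (up to 13.4) and Cd4 (up to 9.14). Cd79b read 0.524 to 1.53 FPKM in set 1 and 4.97 to 16.6 FPKM in set 2. The IL-4 response was present: of 8 response genes checked, 6 passed in the average over genotypes, among them Arg1 and Mrc1. The other 2, Chi3l3 and Retnla, were also higher with IL-4 in each of the 4 pairs, but their controls differed by set. Chi3l3 read 0.844 and 0.407 FPKM in the set 1 controls, 999 and 1088 FPKM in the set 2 controls, and 476 and 655 FPKM in the set 1 IL-4 libraries. Retnla read 0.323 and 0.222 FPKM in the controls of set 1 and 12.1 and 87.7 FPKM in those of set 2. In such bulk RNA, fewer cells of a type and less RNA per cell cannot be told apart.

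The stretches upstream of the start sites of Psmb10 and Psma4 are shown because these were the members called with IL-4, and shorter stretches of Psmb8 and Psmb9 because they are the immunoproteasome genes to set beside Psmb10. They come from RefSeq (GRCm38.p6, the mm10 assembly), read 5′ to 3′ on the strand of the gene, and capitals mark a motif match. Bases inside the GENCODE gene model were left off for Psmb10 and Psma4.
Psmb10, chr8:105938445-105938642, minus strand: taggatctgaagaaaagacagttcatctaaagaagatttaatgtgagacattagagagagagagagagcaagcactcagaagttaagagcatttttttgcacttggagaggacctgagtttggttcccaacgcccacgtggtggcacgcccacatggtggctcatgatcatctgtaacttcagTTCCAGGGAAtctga
Psma4, chr9:54950609-54950789, plus strand: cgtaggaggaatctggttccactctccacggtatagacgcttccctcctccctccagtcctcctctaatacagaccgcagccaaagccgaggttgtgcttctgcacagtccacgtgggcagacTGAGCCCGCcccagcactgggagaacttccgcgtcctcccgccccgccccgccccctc
Psmb8, chr17:34198088-34198116, plus strand: tcctccgctgTTCCCAGAAgatgcccccc
Psmb9, chr17:34187372-34187400, minus strand: ccttgcgcgaTGATGGGGCggggcctcag

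RefSeq start sites were matched for 41 of the 49 members, and the 250 bases upstream of each were searched on both strands for 4 motifs. The palindrome of TTC, any 4 bases and GAA, of the type bound by STAT6, the transcription factor that IL-4 activates, matched 1 of the 41, Psmb10, at positions -67 to -58 from the start site; 5.86% of 27025 gene promoters hold it. The shorter TTCNNNGAA, known as a gamma-activated sequence, matched Psmb8 (positions -97 to -89) and Psmg1, 2 of 41 against 7.18% of promoters. The interferon motif of GAAA, any 2 bases and GAAA matched Psmb3, Psmd4 and Psmd9, 3 of 41 against 3.04%. The antioxidant motif core TGANNNNGC, of the type bound by the NRF factors that control proteasome genes, matched 15 of 41 against 35.1%, with Psma4, Psmb5, Psmb6 and Psmb9 among them. These matches describe letters in a window and say nothing of binding. The windows of Psmb8 and Psmb9 lie inside the spans of their GENCODE gene models, so start sites further upstream were not covered.

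By class median on the FPKM scale, which is per transcript length, core and immunoproteasome genes were the most abundant, with single genes of the classes overlapping. Among constitutive beta subunits, the mean over the 8 libraries ran from 83.9 FPKM for Psmb7 to 186 FPKM for Psmb6, with a median of 122 FPKM. The alpha subunits Psma1 to Psma7 had means from 51.4 FPKM (Psma3) to 118 FPKM (Psma7), while Psma8, the testis form, had a mean of 1.14 FPKM. Immunoproteasome genes ran from 69.8 FPKM for Psmb9 to 193 FPKM for Psme2, with a median of 157 FPKM.

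Class medians of the regulatory particle were lower. The 6 ATPase genes had means of 36.6 FPKM (Psmc6) to 78.8 FPKM (Psmc3), with a median of 57.9 FPKM, and the 11 non-ATPase genes had a median of 43.3 FPKM. Psmd8 stood apart among the latter with 164 FPKM, above every alpha gene, Psmd2 had 89.7 FPKM, above Psmb7, and Psmd11 was lowest with 29.9 FPKM. Products of the other members named here assemble or regulate the core or the regulatory particle. The regulatory particle chaperone genes Psmd5, Psmd9 and Psmd10 had means from 8.32 (Psmd9) to 16.4 FPKM (Psmd10), and the inhibitor gene Psmf1 had 7.51 FPKM. Among the core assembly chaperones, Psmg1 had 7.77 FPKM and Psmg4 49.4 FPKM.

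Psmb11, the catalytic subunit of thymic epithelium, was listed at 0 in 6 of the 8 libraries and at or below 0.0062 FPKM in the others. Psmc3ip had a mean of 1.83 FPKM. In all, 42 members had at least 10 FPKM in every library, and 44 of the 48 tested varied less than 2-fold between the lowest and the highest library. The 4 that varied more were Psmb10, Psme2 and the low genes Psma8 and Psmc3ip.

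**Figure D1:**
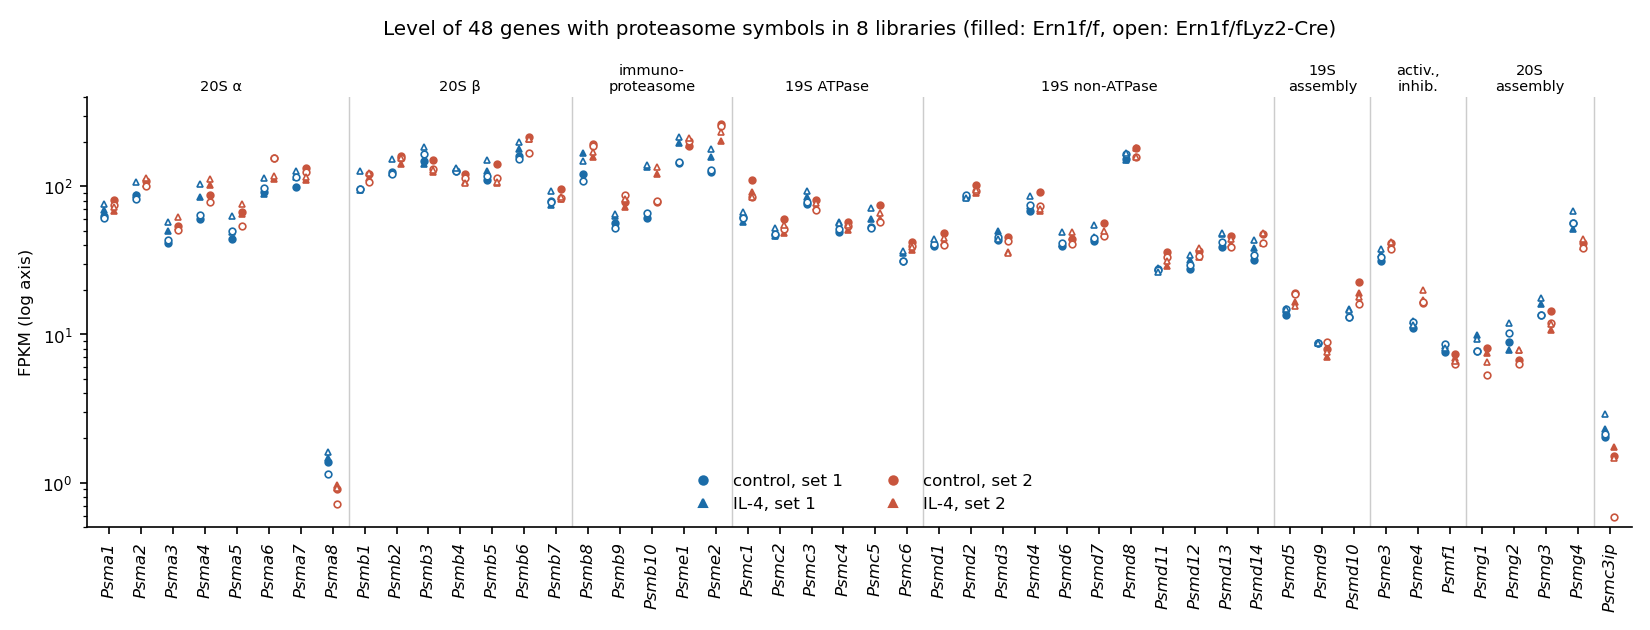
FPKM on a log axis of the 48 members tested, grouped by role (20S, core; 19S, regulatory particle), in each of the 8 libraries (blue, set 1; red, set 2; circles, control; triangles, IL-4; filled, Ern1f/f; open, Ern1f/fLyz2-Cre). Most core and immunoproteasome genes lie high, with Psmd8 among them, Psma8 and Psmc3ip lie lowest, and for Psmb10 the triangles lie above the circles in both sets.

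The proteasome genes as a group took up 0.492% to 0.602% of all FPKM in set 1 and 0.642% to 0.658% in set 2, so the ranges of the sets did not overlap. Their summed FPKM did overlap (2934 to 3688 in set 1 and 3429 to 3832 in set 2). The total FPKM of a library ran from 532768 to 612334. The members did not share 1 profile over the 8 libraries. Pearson's r between each member and the mean of the other constitutive core genes was highest for Psmd7 (0.95), Psmc5 (0.94) and Psmb1 (0.93). It was 0.52 for Psmb10 and lay between -0.19 and 0.14 for the 4 core assembly chaperones. It was lowest for Psmf1 (-0.35) and Psmd9 (-0.34). Subunit genes were also below 0, with Psmb4 at -0.33 and Psmb3 at -0.01 in the constitutive core and Psmd3 at -0.28. All points of these correlations share the libraries' scaling and the difference between the sets.

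Whether IL-4 altered proteasome expression was asked first in the average over genotypes. Psmb10 rose with IL-4, by 1.53 to 2.21 times in the 4 pairs of libraries, and it was the only member called. It encodes the immunoproteasome subunit MECL-1, which takes the place of the Psmb7 product. Psmb10 (chromosome 8, 105935735 to 105938444, mm10) read 60.7 and 78.5 FPKM in Ern1f/f control cells and 134 and 120.4 FPKM with IL-4. In Ern1f/fLyz2-Cre cells it read 65.8 and 79.7 FPKM without and 138 and 134 FPKM with IL-4. Every IL-4 library lay above every control library, a pattern that 6.98% of the genes tested share, and no other member had it.

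Group means of Psmb10 were 69.6 ± 12.6 and 127 ± 9.56 FPKM in Ern1f/f cells and 72.7 ± 9.81 and 136 ± 2.81 FPKM in Ern1f/fLyz2-Cre cells, control then IL-4 (SD, n = 2). By limma the difference on the log2(FPKM + 1) scale was 0.89 ± 0.13 (SE), with a Benjamini-Hochberg adjusted p of 0.0491, and 0.00586 with the replicate number as a block. That call made 1 of 48 members (2.08%), against 0.841% of the genes tested (0.668% higher). With the block it was 2 of 48 (4.17%), both higher, against 12.7% of genes (5.88% higher and 6.86% lower). The unblocked call was lost with median scaling of the libraries (limma adjusted p = 0.0646) and when any 1 library was left out (0.0964 to 0.223), while the blocked call held without each (0.00942 to 0.0396). Other genes were parted by treatment as well. Summed FPKM of 14 cell cycle genes was 284 to 342 in control and 467 to 562 in IL-4 libraries, most of it from Pcna, and the 13 without Pcna overlapped (78.2 to 115 and 112 to 155). Itgax, of the dendritic cell list, read 55.1 to 83.3 FPKM in control and 254 to 333 FPKM in IL-4 libraries. The summed FPKM of the neutrophil list was lower with IL-4 (21.3 to 40.1 in control and 6.04 to 20.2 in IL-4 libraries). Most of it came from S100a8 (20.8 to 33.1 and 5.84 to 19.2). S100a9, the other gene of that list to pass the filter, was lower with IL-4 in the Ern1f/f pairs (0.120 to 0, 5.34 to 3.74). It was higher in the Ern1f/fLyz2-Cre pairs (0 to 0.188, 0.698 to 0.882). The macrophage gene Cd14 was lower with IL-4 (89.3 to 216 and 37.4 to 50.9). The fibroblast genes that passed the filter were lower with IL-4 in both set 1 pairs. Col1a1 went from 65.0 to 31.1 and from 203 to 87.8 FPKM there. In set 2 the pairs were mixed, with Col1a1 lower (2.59 to 2.21, 0.708 to 0.444) and Fn1 higher (3.46 to 22.8, 7.72 to 76.9). The part of these in the Psmb10 result was not tested.

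By genotype the Psmb10 difference was 0.87 ± 0.18 in Ern1f/f and 0.90 ± 0.18 in Ern1f/fLyz2-Cre cells (log2, SE). Neither passed without the block (limma, Benjamini-Hochberg adjusted p = 0.300 and 0.251) and both passed with it (0.0488 and 0.0365), with no other member called. The blocked call in Ern1f/f cells was lost in each of the 8 fits that left out a library (adjusted p = 0.0583 to 0.279) and with median scaling and the block (0.0575). That in Ern1f/fLyz2-Cre cells held in 2 of the 8 (0.0366 to 0.255). With the block on all libraries, 2.12% (1.26% higher, 0.86% lower) and 3.32% (1.79% higher, 1.53% lower) of all genes passed, and 0% and 0.0549% without the block. The difference between the genotypes' responses, Ern1f/fLyz2-Cre less Ern1f/f, was 0.03, with a 95% interval from -0.58 to 0.65 that is too wide to show equality.

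Psma4, an alpha ring subunit, was the other member with a call, in the blocked fit alone. Its FPKM were 60.1 and 87.6 without IL-4 and 84.3 and 102 with it in Ern1f/f cells, and 63.6 and 78.8, then 104 and 113, in Ern1f/fLyz2-Cre cells. IL-4 was higher in each of the 4 pairs, but the set 2 control of Ern1f/f lay above the set 1 IL-4 value of that genotype. The log2 difference was 0.48 ± 0.16 (SE; limma, Benjamini-Hochberg adjusted p = 0.268, and 0.0228 with the block). With the block the call held in 2 of 8 fits that left out a library. Exons of Psma4 (chromosome 9, 54950790 to 54958030, mm10) overlap AY074887 on the other strand, and Gm6542 matches 783 bases of its transcript at 96.8% identity, so its value is uncertain.

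The constitutive counterparts of the immunoproteasome genes were not called. For Psmb7 the FPKM were 80.0 and 95.3 without and 74.7 and 82.4 with IL-4 in Ern1f/f cells, and 78.5 and 83.6, then 92.3 and 84.6, in Ern1f/fLyz2-Cre cells, a log2 difference of -0.01 ± 0.10 (SE). Psmb5 had 0.01 ± 0.15 and Psmb6 0.20 ± 0.13. Psmb5 read 106 to 149 FPKM over IL-4 libraries and 111 to 141 over controls, and Psmb6 read 179 to 209 against 153 to 213, so both overlapped widely.

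The ratio of Psmb10 to Psmb7 was therefore 0.758 to 0.953 in the 4 control libraries and 1.46 to 1.79 in the 4 IL-4 libraries, which did not overlap. Exons of Psmb7 overlap Nek6 on the other strand, and the kit's strand is not stated, so Psmb7 and its ratio are uncertain. Psmb8 over Psmb5, the pair at the chymotrypsin-like site, was parted by set instead, at 0.926 to 1.32 in set 1 and 1.37 to 1.65 in set 2. Gm3375 matches 796 bases of the Psmb5 transcript at 98.9% identity, so the values of Psmb5 and of this ratio are uncertain. Psmb9 over Psmb6, at the caspase-like site, overlapped in every grouping, at 0.331 to 0.353 in set 1 and 0.350 to 0.522 in set 2. The 3 immunoproteasome genes made up 39.4% to 49.3% of the FPKM of the 6 catalytic genes.

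**Figure D2:**
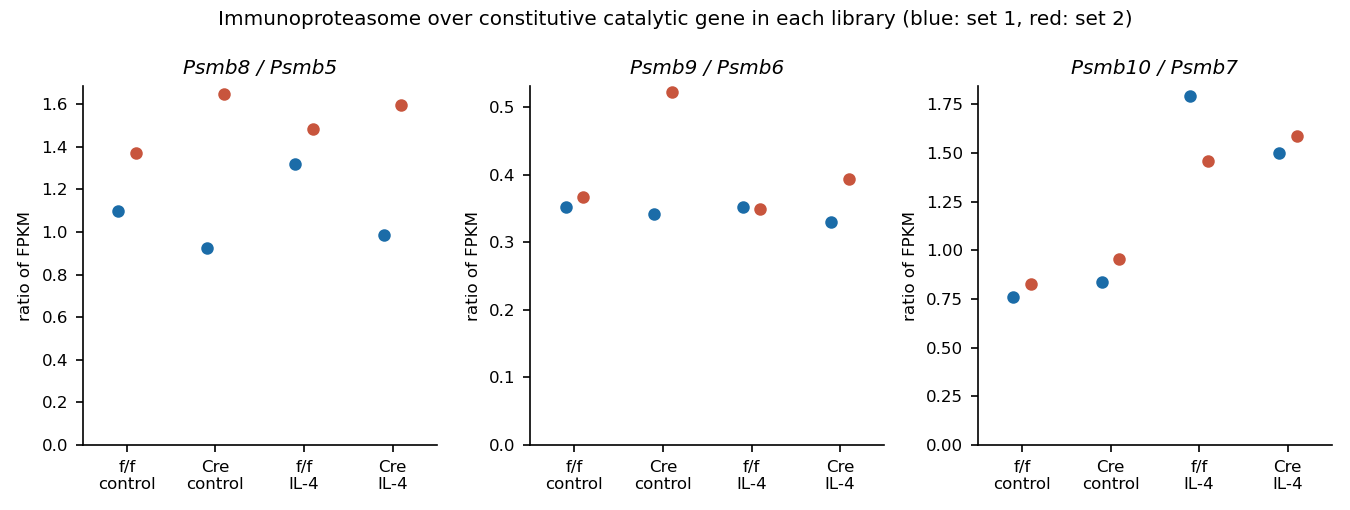
Ratio of FPKM of each immunoproteasome catalytic gene to its constitutive counterpart, 1 point per library, by genotype and treatment (blue, set 1; red, set 2). Psmb10 over Psmb7 is below 1 in the 4 control libraries and at or above 1.46 in the 4 with IL-4, while Psmb8 over Psmb5 is higher in set 2 throughout.

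The other members of the immunoproteasome were not called in the average over genotypes. Psmb8 had a log2 difference of 0.11 ± 0.23, Psmb9 of 0.07 ± 0.21 and Psme2 of 0.08 ± 0.33 (SE). Psme1 had 0.27 ± 0.15 and was higher with IL-4 in each of the 4 pairs. Over all 48 members the median was 0.06, against -0.03 for all genes, and 44 lay within 0.25 of 0, the lowest being Psma6 at -0.17. By role the medians were 0.04 for the 14 constitutive core genes and 0.05 for the 17 genes of the regulatory particle, with 0 called in either. The median width of the 95% interval to each side, not corrected for the number of genes, was 0.32. Smaller differences of single members were thus not detectable, and larger ones could also go uncalled, as Psma4 did at 0.48.

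**Figure D3:**
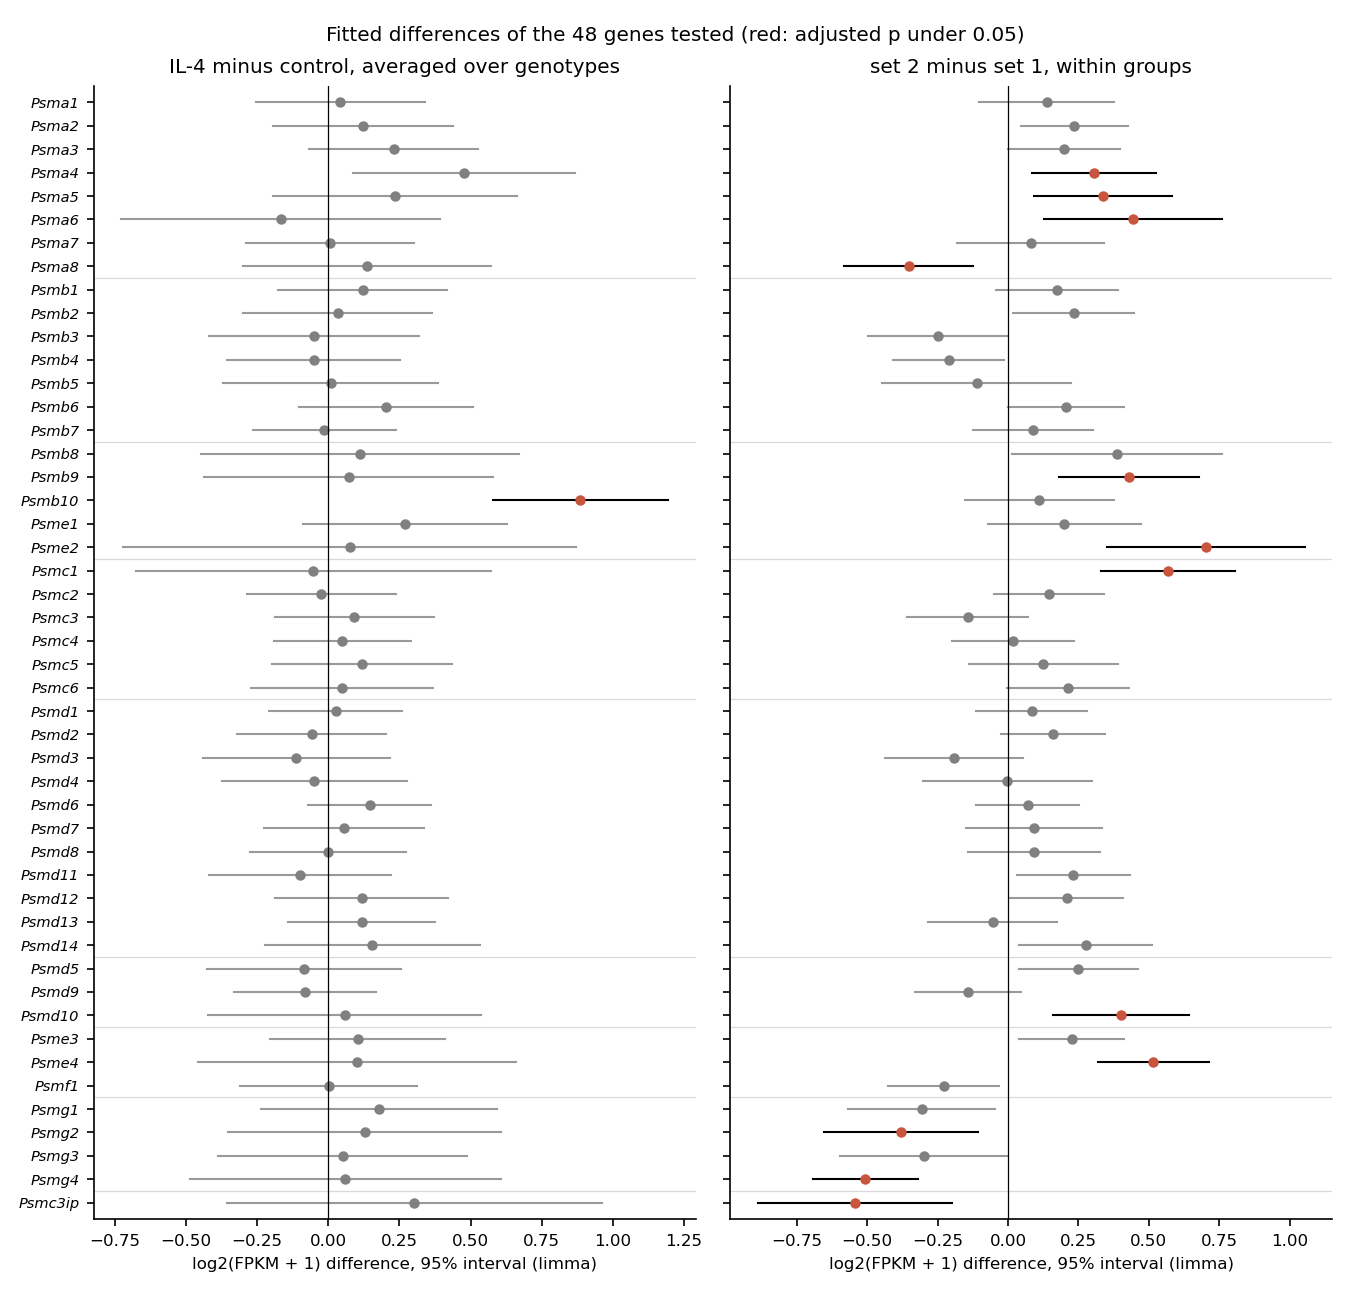
Differences on the log2(FPKM + 1) scale with 95% intervals from limma for the 48 members, for IL-4 minus control (left) and set 2 minus set 1 (right), red where the adjusted p was under 0.05. On the left only Psmb10 is red, and on the right 12 members are red, 8 higher and 4 lower in set 2.

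In each genotype alone, 0 members passed without the block (Psmb10 had the smallest adjusted p by limma, given above), and 1 member in Ern1f/f and 2 in Ern1f/fLyz2-Cre cells had an unadjusted p under 0.05. The medians were -0.02 with 20 of 48 above 0 in Ern1f/f cells and 0.16 with 40 of 48 above 0 in Ern1f/fLyz2-Cre cells, where all genes had -0.04 and -0.02. Taken pair by pair, 38 of 48 members were higher with IL-4 in Ern1f/f cells of set 1 but 9 of 48 in those of set 2. Of all genes tested, 49.7% and 37.2% were. In Ern1f/fLyz2-Cre cells the counts were 43 and 30, against 40.6% and 56.8% of all genes.

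That split by set was examined for each member. IL-4 was higher in both pairs of set 1 and lower in both pairs of set 2 for 12 of the 48 members (25%), against 5.83% of all genes tested. They were Psma1, Psma7, Psmb4, Psmb5, Psmb8, Psmb9, Psmc6, Psmd4, Psmd5, Psmd9, Psme2 and Psmg3. The opposite order occurred in 0 members and 7.23% of genes. Since each set has 1 pair per genotype, and the members share the scaling of 8 libraries, these are counts over 4 pairs and not independent observations. The set 2 controls were also the untreated libraries with Chi3l3 at 999 and 1088 FPKM, and what this has to do with the split was not tested.

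Psmb8 and Psme2 showed the split most clearly. Psmb8 read 122 and 109 FPKM in the controls of set 1 (Ern1f/f, then Ern1f/fLyz2-Cre) and 168 and 147 FPKM with IL-4, but 194 and 188 FPKM in the controls of set 2 and 156 and 170.4 FPKM with IL-4. Psme2 read 125 and 128 FPKM in the controls of set 1 and 157 and 179 FPKM with IL-4, against 262 and 256, then 203 and 233 FPKM in set 2. In both genes the set 2 controls were the highest libraries and the set 1 controls the lowest, with the IL-4 libraries between. Psme2 has a near-identical copy, Psme2b, with which its reads may have been shared.

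Psmb9, next to Tap1 on chromosome 17 and overlapping its exons on the other strand, had the same order within each genotype, in milder form. The kit's strand is not stated, so reads of the overlap cannot be told apart. It read 56.7 and 52.2 FPKM in set 1 controls, 63.3 and 65.4 with IL-4, 78.4 and 87.1 in set 2 controls and 72.8 and 82.3 with IL-4. Psme1 differed: its set 1 controls (144 and 145 FPKM) lay below the other 6 libraries (188 to 215 FPKM). Exons of Psme1 and Psmb8 also overlap genes on the other strand (Emc9 and Gm20496), so the same limit holds for their values. Psme3, which forms the nuclear PA28γ cap, varied less, from 31.5 to 42.2 FPKM.

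**Figure D4:**
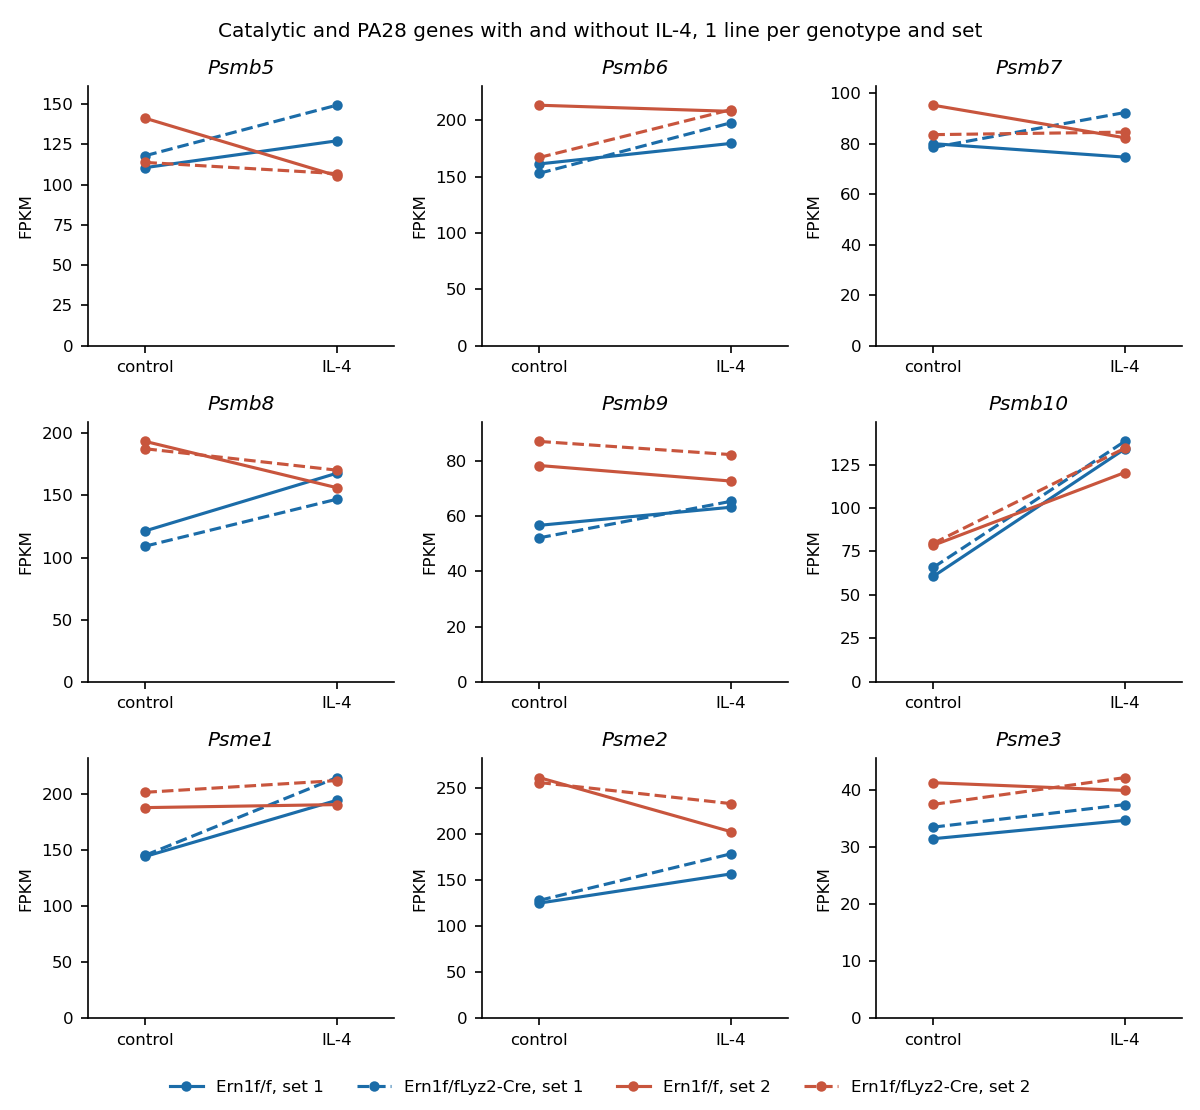
FPKM without and with IL-4 of the 3 constitutive catalytic genes, their 3 immunoproteasome counterparts and the 3 PA28 genes, 1 line per genotype and set (blue, set 1; red, set 2; solid, Ern1f/f; dashed, Ern1f/fLyz2-Cre). The 4 lines of Psmb10 all go up, while those of Psmb8, Psmb9 and Psme2 go up in set 1 and down in set 2.

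A fit with set and treatment as the groups, which is also the grouping by the genotype field, gave IL-4 differences within each set with 1 library of each title genotype per group. In set 1, 5 of 48 members rose with IL-4 (10.4%, against 20.7% of all genes, 8.58% higher). They were Psmb10 (log2 1.09 ± 0.09, SE), Psma4 (0.59 ± 0.12), Psme1 (0.49 ± 0.10), Psmb8 (0.44 ± 0.10) and Psme2 (0.40 ± 0.11). Their limma adjusted p-values (Benjamini-Hochberg) were 0.000369, 0.0143, 0.0127, 0.0237 and 0.0345. Hence 4 of the 5 immunoproteasome genes were called in set 1, and Psmb9 had 0.24 ± 0.10 (limma adjusted p = 0.134). Fibroblast genes were lower with IL-4 in this set (above), and their part in these calls was not tested.

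In set 2 the single call was Psmb10, with 0.68 ± 0.09 (SE; limma, Benjamini-Hochberg adjusted p = 0.00469), where 11.6% of all genes were called (5.3% higher). The other immunoproteasome genes had 0.05 (Psme1), -0.09 (Psmb9), -0.22 (Psmb8) and -0.25 (Psme2). The medians of all 48 members were 0.18 in set 1, with 46 above 0, and -0.05 in set 2, with 19 above 0. All genes tested had medians of -0.04 and -0.01. For the regulatory particle ATPases the mean of the 2 pairs was above 0 for all 6 in set 1 and for 0 in set 2. The 2 pairs of set 2 differed, with -0.31 (Psmc5) to -0.16 (Psmc3) in Ern1f/f cells and -0.008 (Psmc6) to 0.19 (Psmc5) in Ern1f/fLyz2-Cre cells.

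The difference between the sets' responses was tested directly, and 0 of 48 members passed (limma, smallest adjusted p = 0.0939 with Benjamini-Hochberg correction), against 0.969% of all genes. An unadjusted p under 0.05 was found for 13 of 48 members (27.1%) and for 17.5% of genes. The response in set 2 minus that in set 1 had a median of -0.20 over the members and 0.03 over all genes. It was lowest for Psmb8 at -0.67 (95% interval -1.01 to -0.32) and Psme2 at -0.65 (-0.997 to -0.30). For Psmb10 it was -0.42 (-0.72 to -0.12). These intervals are not corrected for the number of genes, and Psmb8 and Psme2 were picked as the lowest of the 48.

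**Figure D5:**
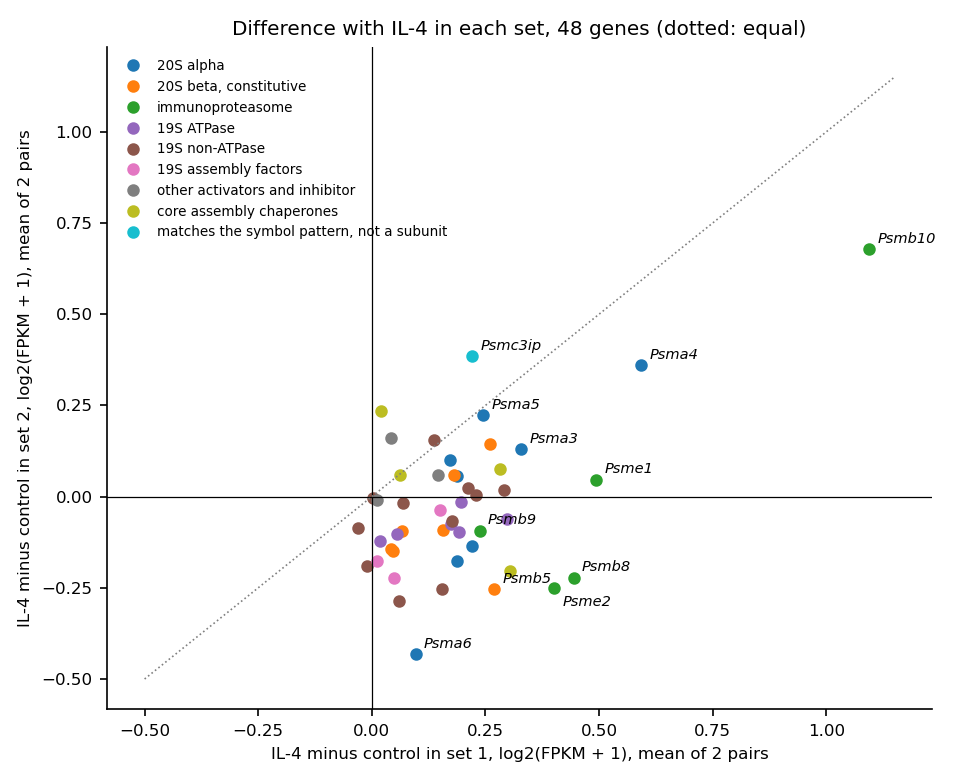
Difference with IL-4 on the log2(FPKM + 1) scale in set 1 (horizontal) and set 2 (vertical) for the 48 members, each the mean of 2 pairs, coloured by role. Psmb10 is highest on both axes, 46 members lie right of 0, 19 lie above 0, and Psmb8 and Psme2 are positive in set 1 and negative in set 2.

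Levels themselves also differed between the sets. In a fit with the 4 groups and the set as a term, 12 of 48 members were called (25%, against 33.4% of all genes), 8 higher and 4 lower in set 2 (10.1% and 23.3% of genes). The largest was Psme2 with a log2 difference of 0.70 ± 0.15 (SE; limma, Benjamini-Hochberg adjusted p = 0.0134). Psmc1, an ATPase of the regulatory particle that has a copy of 95.6% identity, had 0.57 ± 0.10 (0.00742), and Psme4, which encodes the PA200 activator, had 0.52 ± 0.08 (0.00563). Psmb9 had 0.43 ± 0.10 (0.0222) and the chaperone gene Psmd10 had 0.40 ± 0.10 (0.0250). The alpha subunit genes Psma4, Psma5 and Psma6 were the other higher ones, at 0.30, 0.34 and 0.44.

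The 4 lower members were not catalytic or regulatory particle subunits. Psmg4 and Psmg2, chaperones of core assembly, fell by 0.51 and 0.38 on the log2 scale (limma, Benjamini-Hochberg adjusted p = 0.00497 and 0.0436). Psmg4 read 51.2 to 68.4 FPKM in set 1 and 38.1 to 44.1 in set 2, which did not overlap. The low genes Psma8 and Psmc3ip fell by 0.35 and 0.54. All 4 Psmg genes had values below 0, while all 5 immunoproteasome genes had values above 0.

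These counts depend on scaling and on the libraries in the fit. All tested genes had a median of -0.11 between the sets. With each library scaled to its median this became -0.01, and 20 members were called, 19 higher and Psmg4 lower, in place of 8 higher and 4 lower. Psmb2, Psmb6, Psmd2, Psmd14 and Psme3 were among those added. The 12 calls became 5 without either Ern1f/fLyz2-Cre IL-4 library or without Ern1f/f control replicate 2, and 6 without Ern1f/f control replicate 1 or either Ern1f/fLyz2-Cre control. Over the 8 fits that left out a library, the log2 difference was 0.49 to 0.64 for Psmc1 and 0.58 to 0.81 for Psme2. It was 0.45 to 0.55 for Psme4 and -0.54 to -0.47 for Psmg4. A library left alone in its group has no bearing on the set difference, so leaving out either library of a group gave the same difference. The 8 fits are thus not separate checks.

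Without overlap, 10 members lay higher in set 2 (9.33% of all genes did) and 6 lower (22.4%). In the fit by set and treatment, 19 members differed between the sets' controls, 17 higher and 2 lower in set 2 (34.9% of all genes, 10.7% higher and 24.2% lower). Between the IL-4 libraries 8 differed, 3 higher and 5 lower (29.9%, 9.69% higher and 20.2% lower). The difference between these is the one tested above, which no member passed. Psme2 differed by 1.03 in controls and 0.38 with IL-4, and Psmb8 by 0.72 in controls and 0.05 with IL-4, of which the last did not pass. Psme1 over Psme2 was 1.14 to 1.24 in set 1 and 0.718 to 0.939 in set 2.

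Other genes differed between the sets too, and their counts stand against 33.4% of all genes called. Of 13 interferon regulators listed for the immunoproteasome, 7 were higher and 1 lower in set 2 (61.5%), including Irf7 (log2 2.34), Stat2 (2.08) and, lower, the receptor chain Ifngr1 (-1.16). Tap1, the peptide transporter next to Psmb9, was 0.95 higher and the only 1 of 10 MHC class I loading genes called; Tap2 had 0.25 ± 0.11 (SE) and did not pass. Among the 12 partners Rad23b was higher and 3 were lower (33.3%), and of 14 genes in the NRF arm 3 were higher, with Nfe2l1 at 0.39, and Gclc lower (28.6%), both shares near that of all genes. Of 9 fibroblast markers 7 were tested and 6 were lower in set 2, with a summed FPKM of 140.1 to 719 in set 1 and 10.8 to 79.4 in set 2. The part of either group of genes in the proteasome differences was not tested.

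Genotype as titled gave no call for any member. In control cells, with IL-4 and in the average, 0 of 48 passed by limma, as did 0% of all genes, and no member had an unadjusted p under 0.05 (27, 42 and 52 genes did). With the block 0 members passed too, against 0.00915% of genes with IL-4 and 0% otherwise; 1 member then had an unadjusted p under 0.05. The medians of Ern1f/fLyz2-Cre minus Ern1f/f were -0.05 in control cells, 0.11 with IL-4 and 0.02 averaged. In control cells the sets differed: 35 of 48 members were higher in the set 1 pair and 5 of 48 in the set 2 pair. Of all genes, 66.9% and 37.4% were. With IL-4 the counts were 39 and 38, against 44.3% and 67.1% of all genes.

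The 2 higher and 2 lower members with the smallest p in control cells were Psmg1 (log2 -0.27 ± 0.24, SE), Psmb6 (-0.21 ± 0.18), Psma7 (0.07 ± 0.17) and Psmd9 (0.07 ± 0.14). With IL-4 they were Psmb1 (0.25 ± 0.17), Psmd6 (0.18 ± 0.13), Psmd3 (-0.10 ± 0.19) and Psmg1 (-0.12 ± 0.24). In the average they were Psmg1 (-0.19 ± 0.17), Psmg2 (0.17 ± 0.20), Psmd6 (0.07 ± 0.09) and Psmd10 (-0.14 ± 0.20). None passed (limma, Benjamini-Hochberg adjusted p = 1 within a treatment), and the median 95% interval reached 0.45 to each side within a treatment.

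For the interaction, the IL-4 response of Ern1f/fLyz2-Cre minus that of Ern1f/f, 0 of 48 members passed (0% of all genes), and 0 had an unadjusted p under 0.05 (19 genes did). The median was 0.19 with 43 of 48 members above 0, against 0.01 for all genes. Psmc5 (0.37 ± 0.26, SE) and Psmb1 (0.34 ± 0.24) were the 2 higher members with the smallest p, and Psmd3 (-0.08 ± 0.27) and Psmd5 (-0.07 ± 0.28) the 2 lower ones. The count above 0 rests on the same 8 libraries for every member and has no test.

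Genes that work with the proteasome were compared in the average IL-4 difference. Of 12 tested partners outside the symbol pattern, 0 passed without the block (0.841% of all genes did) and 2 with it (16.7%, against 12.7% of all genes). These were Pomp, the maturation factor of the core (log2 0.40 ± 0.12, SE; limma, Benjamini-Hochberg adjusted p = 0.233, and 0.0472 with the block), and Usp14, a deubiquitinase bound to the regulatory particle (0.29 ± 0.08; 0.187 and 0.0439). Pomp read 126 to 133 FPKM in controls and 142 to 214 FPKM with IL-4. Of 16 ubiquitin genes and enzymes, 0 passed in either fit, and between the sets 2 were higher and Ubb lower, with Ube2l6 at 1.79.

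Among 14 genes of the NRF1 and NRF2 arm, which controls proteasome gene transcription, 0 passed without the block and 1 was above 0. With the block Mafg alone was called (7.14%, against the same 12.7%), at -0.47 (limma, Benjamini-Hochberg adjusted p = 0.0209). Nfe2l1, which encodes NRF1, had -0.28 ± 0.20 (SE). Of the 13 interferon regulators, Jak2 passed without the block (1.39 ± 0.15; adjusted p = 0.0199). Irf1 read 29.2 to 39.9 FPKM in controls and 49.7 to 71.9 FPKM with IL-4, with 0.78 ± 0.17 and adjusted p-values of 0.118 and, blocked, 0.00368. Irf2, Irf8 and Socs1 were also called with the block, Irf8 as lower, which made 5 of 13 (38.5%). Of the 10 MHC class I loading genes, 0 passed without the block, and Calr (0.47) and Erap1 (0.37) with it (2 of 10, against 12.7% of all genes).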

How the data were processed

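Gene-level FPKM were made by the authors from RNA-seq of 8 libraries, with TopHat 1.4.1, Cufflinks 1.3.0 and mm10 per the submitters' processing notes; the gene models are not given in the sources used here. Rows that share a symbol were summed. Genes reaching 1 FPKM in 2 or more libraries were kept, and log2(FPKM + 1) was fitted with limma 3.58.1 (eBayes with trend, two-sided) in R 4.3.3 on 4 group means with a threshold of 0.05 on the Benjamini-Hochberg adjusted p; fold changes of low genes are understated on this scale. Scripts were tested on simulated data. Figures used matplotlib 3.10.9 in Python 3.11.15.

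Set 2 minus set 1 correlated over the genes tested in each of the 6 pairings of 2 groups (r = 0.69 to 0.83), so the numbers were taken to pair the libraries. This pairing comes from the data and not from the labels, and blocked values are given where they change a call or a count.

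No counts were among the files. If the deposited confidence bounds hold counting error alone, a member's value rested on 2340 fragments (median over members and libraries), and on 11 at the least (Psmc3ip).

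Members and lists (partners, ubiquitin, NRF arm, interferon regulators, MHC class I loading, IL-4 response, cell markers) were chosen with earlier results of these data known. Named in full were the catalytic and PA28 genes, called members (at most 6 per comparison by p, else the 2 higher and 2 lower with the smallest p), low or assembly members, and class extremes. Psmb2, Psmb6, Psmd2, Psmd14 and Psme3 under median scaling, and Psma3 and Psmd2 by level, were chosen after their values were seen. So were Psmb3, Psmb4, Psmd3 and Psmd9 by correlation, and the members listed by pattern. By GENCODE M21 transcripts, 11 members have a copy of at least 95% identity over 200 bases, and exons of 14 overlap another gene; Psmb10 has neither. Alternatives covered pseudocounts of 0.1 and 5, filters, scaling, trend, samples in the fit, rows per symbol, status, the block, the genotype field and each library left out.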

Additional observations from a re-analysis of the deposited data

How the results depend on the processing

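Counts below are members called of 48 (49 with no filter). With the replicate number as a block they were 1 for IL-4 in Ern1f/f cells, 1 in Ern1f/fLyz2-Cre cells and 2 in the average, against 0, 0 and 1 without it. The block changed no other call of a member. Grouped by the genotype field, they were 5, 1 and 3 for IL-4, and for genotype 19 (control cells), 8 (IL-4 cells) and 26 (averaged), against 0 by title. The IL-4 average lost its call with no filter, median scaling and quantile normalization (0 each; adjusted p of Psmb10 0.0669, 0.0646 and 0.05004). Between the sets 6 were called with no filter and 20 with median scaling. The 2 scalings combined with the block were chosen after seeing the data: median scaling gave 0, 1 and 2, and quantile normalization 1, 1 and 2. The cause of these changes was not tested.

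Leaving out 1 library gave 0 for the IL-4 average without the block and 1 to 2 with it, 0 for IL-4 in Ern1f/f cells with or without it, 0 to 1 for IL-4 in Ern1f/fLyz2-Cre cells with it, and 5 to 8 between the sets. Where a library is left out, the lone sample of its group is assumed to vary like the others. Between the sets, that sample has no bearing on the difference, so the fits without either library of a group are not separate checks.

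Values not called changed sign as follows. For IL-4, Psmb5 became -0.030 with quantile normalization, with or without the block, and Psmb7 0.0018 with median scaling, likewise. By the genotype field, genotype in control cells gave 0.26 for Psmb6 and -0.049 for Psmd9, the average 0.40 for Psmd10 and -0.38 for Psmg2, and the interaction -0.12 for Psmb1 and -0.36 for Psmc5. Leaving out libraries (both fits) gave, for IL-4, Psmb5 -0.15 to 0.16, Psmb7 -0.085 to 0.057, Psmb8 -0.083 to 0.30, Psmb9 -0.11 to 0.25 and Psme2 -0.19 to 0.34. For genotype it gave, in control cells, Psma7 -0.15 to 0.28 and Psmd9 -0.032 to 0.17, with IL-4, Psmd3 -0.32 to 0.12 and Psmg1 -0.34 to 0.11, and averaged, Psmd10 -0.32 to 0.043. The interaction gave Psmd3 -0.30 to 0.14 and Psmd5 -0.30 to 0.16, and the sets Psmb5 -0.27 to 0.011. With 2 libraries a group, the 95% interval of a member reached 0.32 (log2, median) to each side in the IL-4 average.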
